A study of Homo sapiens with 6 samples.

Results

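Histone lysine methyltransferases and demethylases add methyl groups to, and take them from, lysines of histone tails. Their transcripts were followed by RNA sequencing in CAL-27 cells, an established line from a squamous carcinoma of the human tongue, after treatment with elesclomol and copper. The genes were taken by symbol (KDM1 to KDM8, KMT2, KMT5, SETD, SETDB, NSD, EZH, EHMT, SUV39H and PRDM), whatever their values. The rule found 59 of the 16809 genes listed. Of these, 22 are methyltransferases of a histone lysine, called writers here, 18 are demethylases, called erasers, 13 belong to the PRDM family of zinc-finger proteins with a SET-related domain, and 6 are other SET-domain genes with no settled histone substrate or a substrate outside histones. There were 3 libraries of cells treated for 24 h with elesclomol-Cu, given in a 1:1 ratio (ES-Cu), and 3 libraries of normal control cells. Elesclomol brings copper into cells and serves as a trigger of cuproptosis, a form of cell death that depends on copper. The sources used here give no doses, medium or vehicle.

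Methylation is written with S-adenosylmethionine as the methyl donor. Methylation of lysine 4 of histone H3 (H3K4) marks promoters and enhancers, methylation of H3K36 marks transcribed gene bodies, and methylation of H3K9, H3K27 and H4K20 is found mostly in silent or compacted chromatin. Most erasers belong to the Jumonji family, which uses iron, oxygen and 2-oxoglutarate, whereas KDM1A and KDM1B use the flavin cofactor FAD. Neither histone methylation nor protein was measured in these libraries.

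Values were TPM, in which each gene is given as its share of all transcripts after correction for length, so levels can be compared between genes and between libraries only as shares. A change of that share and a change in the amount of RNA per cell cannot be told apart in TPM. The limma test was run on log2(TPM + 1) for the 11927 genes whose mean across libraries reached 1 TPM, and 53 of the 59 members were among them. Log2 fold changes are ES-Cu minus control on that scale, which understates the change of low genes. The median tested gene lay at -0.50 in the deposited TPM, near 0 after median-of-ratios scaling and at -0.073 after quantile normalization. A gene is said to have risen or fallen only where the Benjamini-Hochberg adjusted p was under 0.05 with the same sign in all 3 scalings. Adjusted p-values printed without a scaling are from limma on the deposited TPM. Separate cultures are not named in the labels, and p-values therefore cover no more than the spread among these libraries, part or all of which may be technical. Read depth cannot be had from TPM, and 14959 to 15051 genes lay above 0 per library. All 8 squamous epithelial markers were detected, with a summed level of 2927 to 2977 TPM in ES-Cu and 2521 to 2643 TPM in control. The markers did not move together. SFN (1212 to 1247 TPM in ES-Cu, 605 to 664 TPM in control) and KRT6A were higher in ES-Cu. TP63 (23.5 to 25.3 against 85.4 to 88.1 TPM), CDH1 (68.1 to 74.0 against 171 to 176 TPM), KRT17 and EPCAM were lower. KRT5 and KRT14 overlapped, with KRT14 at most at 5.16 TPM. Of 12 markers of other cell types 11 were listed, and their sum was 55.8 to 60.3 TPM in ES-Cu and 74.7 to 81.1 TPM in control, mostly from CD68, while the leukocyte marker PTPRC reached at most 0.04 TPM. Their part in the results below was not tested.

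Of the 53 tested members, 8 rose (15.1%) and 14 fell (26.4%), beside 13.5% and 31.2% of all tested genes. The other 31 met neither condition. In the deposited TPM alone, 8 members were higher and 35 lower, beside 13.6% and 70.0% of all tested genes, and after median-of-ratios scaling alone 20 were higher and 16 lower, beside 38.0% and 35.8%. Every ES-Cu library lay above every control library for 7 members, beside 14.0% of all tested genes, and below for 36, beside 70.3%. As a whole the members thus moved about as often as other genes. Their median log2 fold change was -0.47, against -0.50 over all tested genes, and 28 of the 53 lay above that median gene. Among the 22 writers, 2 rose (9.09%) and 7 fell (31.8%), and among the 17 tested erasers 4 rose (23.5%) and 5 fell (29.4%). The median log2 fold change was -0.41 for writers and -0.56 for erasers, over ranges of -1.30 to 0.57 and of -1.89 to 1.07. The ranges of the classes overlapped widely, and values differed more between genes within a class than between the class medians. With a minimum log2 fold change of 0.5 in all 3 scalings (limma treat), 5 of the 22 calls were kept, namely EHMT2, KDM4B, KDM6B, KDM7A and PRDM1. The sign of the writer median depends on the scaling, with 0.10 after median-of-ratios scaling and 0.028 after quantile normalization. The eraser median was negative in all 3 scalings, but close to 0 after median-of-ratios scaling (-0.049) and at -0.11 after quantile normalization. The eraser median minus the writer median was -0.15, -0.15 and -0.14 in the deposited TPM, after median-of-ratios scaling and after quantile normalization.

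**Figure D1:**
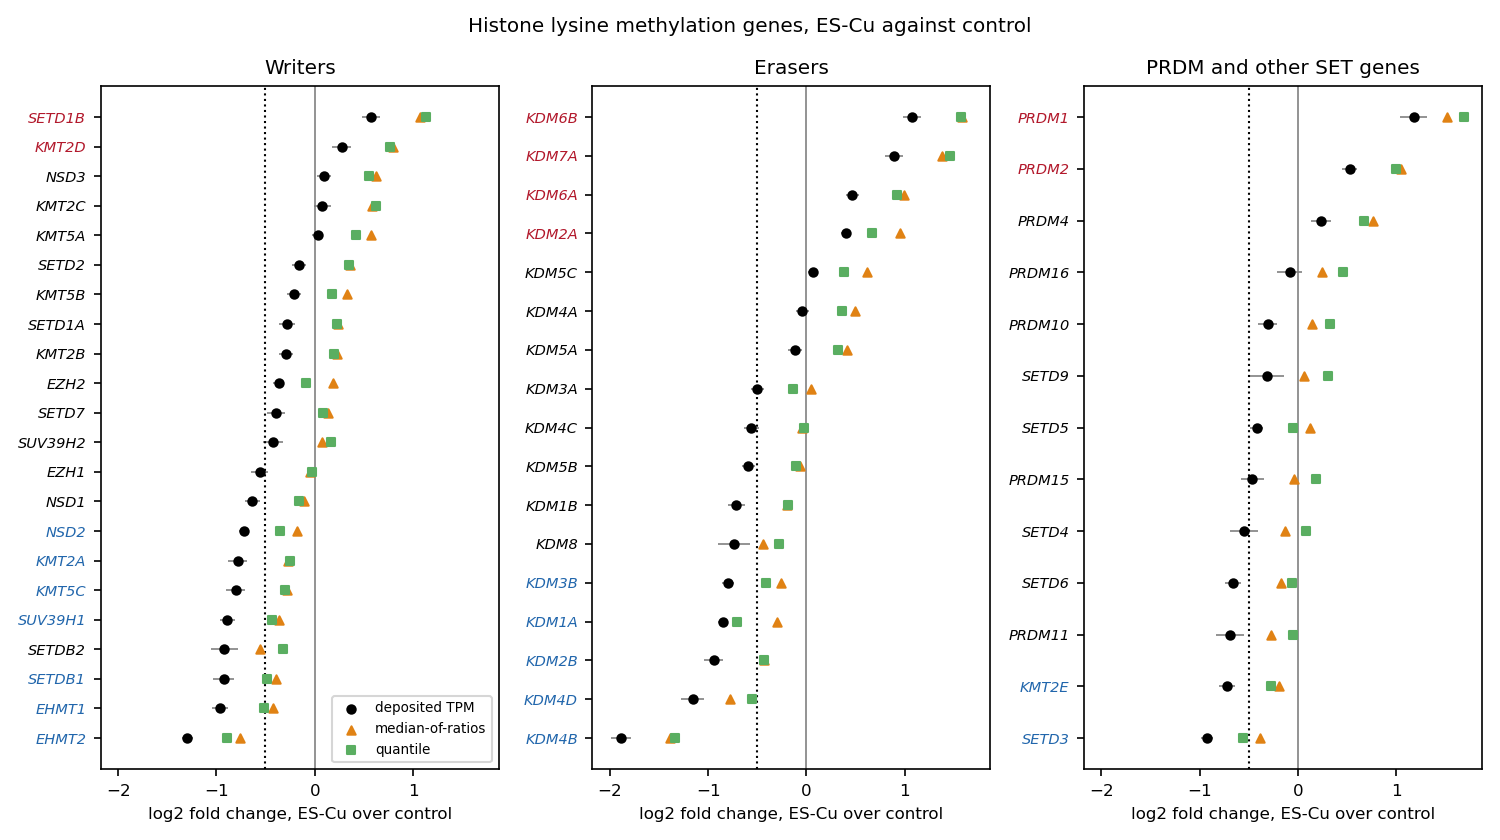
Log2 fold change (ES-Cu minus control, log2(TPM + 1) scale) of 52 of the 53 tested members by class, with black circles for deposited TPM and their SE, orange triangles after median-of-ratios scaling and green squares after quantile normalization. The dotted line marks the median tested gene at -0.50 and label colour marks the 8 members that rose (red) and the 14 that fell (blue). KDM6B, KDM7A and PRDM1 lie farthest to the right and KDM4B farthest to the left.

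**Figure D2:**
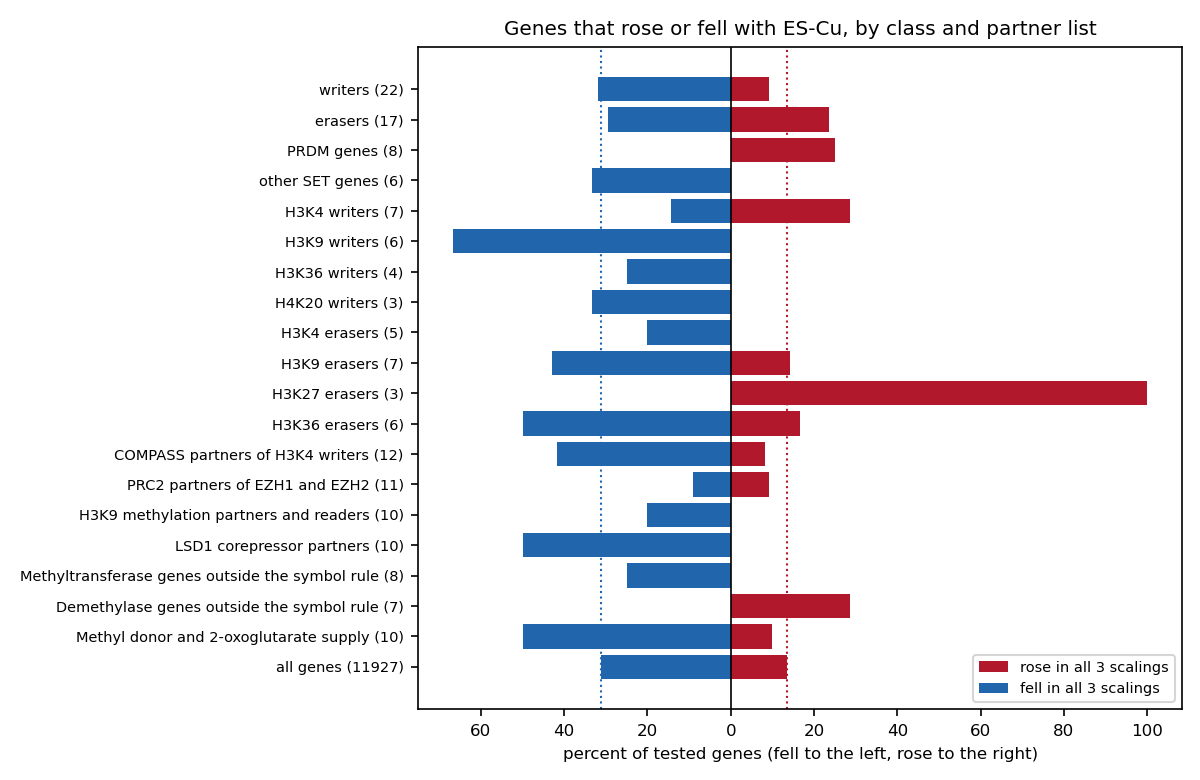
Percentage of tested genes that rose or fell in all 3 scalings, by class, mark and partner list, and over all genes. Dotted lines mark the shares over all 11927 tested genes (13.5% rose and 31.2% fell). The writers of H3K27 methylation, of which none rose or fell, are not drawn. Erasers rose in 23.5% and fell in 29.4%, and writers rose in 9.09% and fell in 31.8%.

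The erasers of H3K27 methylation were the group in which all members rose, 3 of 3, beside 13.5% of all tested genes. It is a small group among those of several marks. KDM6A (UTX) and KDM6B (JMJD3) remove trimethyl and dimethyl groups from H3K27, and KDM7A acts on dimethylated H3K27 and H3K9. Their summed level was 49.7 ± 1.80 TPM in ES-Cu and 28.1 ± 1.68 TPM in control (SD, n = 3 each). Promoters of these 3 genes are shown because the genes moved together. Each is the 250 bases before the gene start in RefSeq (GRCh38.p14), read 5′ to 3′ on the strand of the gene, at chr17:7833967-7834216 on the plus strand for KDM6B, chr7:140176984-140177233 on the minus strand for KDM7A and chrX:44872938-44873187 on the plus strand for KDM6A. Capitals mark matches, on either strand, to TGCNCNC, the letters searched here for the core of the metal response element. That element is the binding motif of MTF1, the metal-responsive transcription factor, and the letters searched may be looser than its core.
KDM6B: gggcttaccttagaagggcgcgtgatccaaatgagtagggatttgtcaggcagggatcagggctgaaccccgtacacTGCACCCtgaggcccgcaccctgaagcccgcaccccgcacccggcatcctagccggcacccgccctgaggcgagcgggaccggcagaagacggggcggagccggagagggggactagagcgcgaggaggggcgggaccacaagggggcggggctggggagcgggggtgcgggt
KDM7A: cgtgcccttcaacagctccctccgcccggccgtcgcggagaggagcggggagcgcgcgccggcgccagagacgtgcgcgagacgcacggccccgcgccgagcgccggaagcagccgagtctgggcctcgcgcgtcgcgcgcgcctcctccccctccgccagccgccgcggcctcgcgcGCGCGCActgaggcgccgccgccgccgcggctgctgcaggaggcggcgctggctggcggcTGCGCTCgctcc
KDM6A: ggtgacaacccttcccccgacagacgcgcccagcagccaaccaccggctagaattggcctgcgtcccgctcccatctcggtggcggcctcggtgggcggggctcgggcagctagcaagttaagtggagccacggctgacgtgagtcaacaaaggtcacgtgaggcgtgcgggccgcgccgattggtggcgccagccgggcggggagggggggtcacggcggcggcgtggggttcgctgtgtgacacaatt
KDM6B held 1 match, whose first base lies 173 bases before the start, KDM7A held 2, at 72 and 12 bases before the start, and KDM6A held none in this window. These letters are common, since 63.4% of the promoters of 9821 tested genes hold them in the window from 250 bases before to 50 after the start, and 36 of 54 matched members do (66.7%). A match describes the letters only and shows no binding.

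KDM6B, an eraser that is itself induced in many stress and inflammatory responses, had 19.84, 17.09 and 19.15 TPM in the ES-Cu libraries, against 9.40, 8.05 and 7.73 TPM in the control libraries. Every ES-Cu library lay above every control library, at 2.23 times the control mean. The log2 fold change was 1.07 ± 0.090 (SE) with an adjusted p of 7.54e-07 in limma. KDM7A had 11.28, 10.68 and 9.48 TPM in ES-Cu and 5.26, 5.14 and 5.14 TPM in control, again without overlap, for a log2 fold change of 0.89 ± 0.090 (adjusted p = 3.07e-06). KDM6A, which also sits in the complexes of the H3K4 writers KMT2C and KMT2D, had 20.23, 20 and 21.26 TPM in ES-Cu and 15.37, 13.62 and 14.71 TPM in control. Its groups did not overlap either, but the rise was smaller, at 0.47 ± 0.069 (adjusted p = 7.08e-05). The level of KDM6B relative to KDM6A in the same library was 0.912 ± 0.064 in ES-Cu and 0.576 ± 0.045 in control.

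The writers of the same mark did not rise. EZH2, the catalytic subunit of Polycomb repressive complex 2 (PRC2) in dividing cells, had 82.57, 81.55 and 82.88 TPM in ES-Cu, against 98.77, 107.30 and 114.09 TPM in control. The ES-Cu libraries lay below all control libraries in the deposited TPM, with a log2 fold change of -0.37 ± 0.054 (adjusted p = 6.35e-05 in limma), but the value was 0.18 after median-of-ratios scaling (adjusted p = 0.00918) and -0.091 after quantile normalization (adjusted p = 0.15). No direction is therefore given for EZH2. EZH1, its counterpart in resting cells, had 9.59, 8.21 and 9.05 TPM in ES-Cu and 14.08, 14.17 and 12.77 TPM in control. Its groups did not overlap, and its log2 fold change of -0.56 lay near that of the median gene, with an adjusted p of 0.568 after median-of-ratios scaling. Within each library, a ratio of writers to erasers is free of a scaling factor. The summed TPM of EZH1 and EZH2 over that of the 3 erasers was 1.79, 1.88 and 1.84 in ES-Cu, against 3.76, 4.53 and 4.60 in control. The ES-Cu ratios (1.84 ± 0.042) lay well below all control ratios (4.30 ± 0.467). The eraser sum was 1.77 times and the writer sum 0.758 times the control mean in the deposited TPM, and after median-of-ratios scaling they were 2.60 and 1.12 times that mean.

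**Figure D3:**
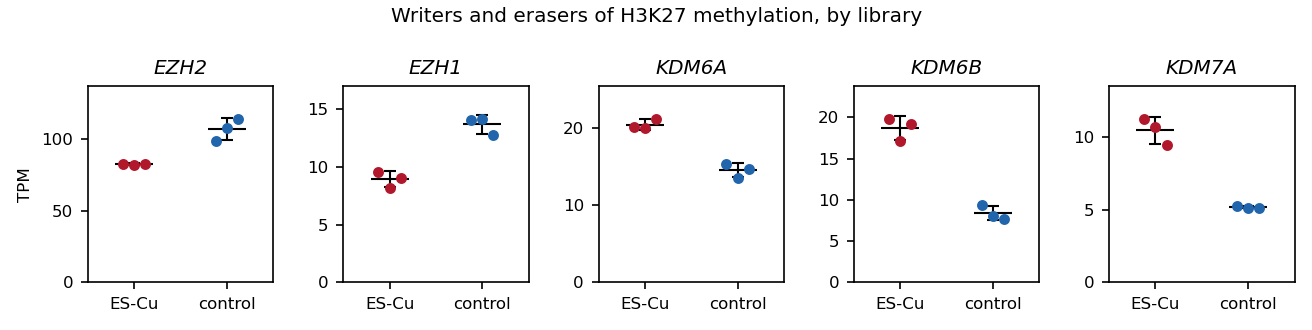
TPM of the 2 writers (EZH2, EZH1) and 3 erasers (KDM6A, KDM6B, KDM7A) of H3K27 methylation, with 1 point per library and bars at the mean ± SD (n = 3). In these deposited TPM the writers lie lower and the erasers higher in ES-Cu than in control, without overlap in any panel, but EZH2 is higher in ES-Cu after median-of-ratios scaling (0.18).

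All 6 genes classed here as writers of H3K9 methylation had lower TPM in every ES-Cu library than in every control library. This pattern is shared by 70.3% of all tested genes. PRDM2, an H3K9 methyltransferase counted below with the PRDM genes, is not among the 6, and it rose (18.6 TPM in ES-Cu, 12.6 TPM in control). Of these 6, 4 fell in all 3 scalings (66.7%, beside 31.2% of all tested genes), namely EHMT2, EHMT1, SETDB1 and SUV39H1. The median log2 fold change of the 6 was -0.92, against -0.50 for all tested genes. EHMT2 (G9a) and EHMT1 (GLP) form the complex that sets most monomethyl and dimethyl H3K9 in gene-rich chromatin. EHMT2 had 17.29, 17.09 and 17.03 TPM in ES-Cu and 46.05, 41.85 and 42.84 TPM in control. The ES-Cu libraries were nearly equal and lay at 0.393 times the control mean, the lowest ratio among the writers tested other than SETDB2, which is a low-level gene. The log2 fold change was -1.30 ± 0.059 (adjusted p = 8.23e-09 in limma). EHMT1 had 16.45, 13.37 and 14.84 TPM in ES-Cu and 27.96, 31.10 and 30.52 TPM in control, with a log2 fold change of -0.96 ± 0.081 (adjusted p = 7.09e-07). So both partners of this complex fell, in all 3 scalings.

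SETDB1 trimethylates H3K9 at retroelements together with TRIM28. Its level was 17.29, 11.97 and 13.82 TPM in ES-Cu, against 27.78 to 28.18 TPM in control, with more spread among the ES-Cu libraries and no overlap. Its log2 fold change was -0.93 ± 0.106 (adjusted p = 8.24e-06 in limma). SUV39H1, which trimethylates H3K9 in the heterochromatin around centromeres, had 13.39, 13.89 and 13.10 TPM in ES-Cu and 23.64, 27.79 and 26.04 TPM in control. It fell with a log2 fold change of -0.89 ± 0.073 (adjusted p = 6e-07). Its paralogue SUV39H2 lay at -0.43, which is above the median gene, and was 0.073 after median-of-ratios scaling. SETDB2 averaged 1.21 ± 0.257 TPM in ES-Cu and 3.17 ± 0.515 TPM in control and had an adjusted p of 0.0713 after quantile normalization, so it is not counted as fallen.

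The erasers of H3K9 methylation moved in both directions. KDM4B, a Jumonji demethylase of trimethylated H3K9 and H3K36, had 4.71, 4.31 and 5.76 TPM in ES-Cu and 19.77, 20.23 and 22.66 TPM in control. It stood at 0.236 times the control mean and had the most negative log2 fold change of all 53 tested members, -1.89 ± 0.102 (adjusted p = 2.84e-08 in limma). KDM3B, which removes H3K9 monomethyl and dimethyl groups, had 25.75, 22.57 and 24.09 TPM in ES-Cu and 41.07, 43.57 and 43.64 TPM in control. It fell by 0.80 on the log2 scale (SE 0.062, adjusted p = 3.96e-07), also without overlap. KDM4D, a further member of the KDM4 family, averaged 1.28 ± 0.229 TPM in ES-Cu and 4.08 ± 0.187 TPM in control and also fell. The close relatives did not follow, since KDM4A was at -0.041 (adjusted p = 0.553), KDM4C at -0.56 and KDM3A at -0.50, and none of them was called in all 3 scalings. With KDM7A, described above, 1 eraser of H3K9 methylation rose and 3 fell among 7 (14.3% and 42.9%, beside 13.5% and 31.2% of all tested genes). The sum of the writers, PRDM2 not included, over the sum of the erasers was 0.652, 0.638 and 0.626 in ES-Cu. In control it was 0.890, 0.900 and 0.882. All ES-Cu ratios lay below all control ratios, although the summed erasers were lower as well in the deposited TPM, at 107 ± 5.30 TPM in ES-Cu and 157 ± 2.79 TPM in control. After median-of-ratios scaling the writer sum was 0.715 times and the eraser sum 0.997 times the control mean.

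**Figure D4:**
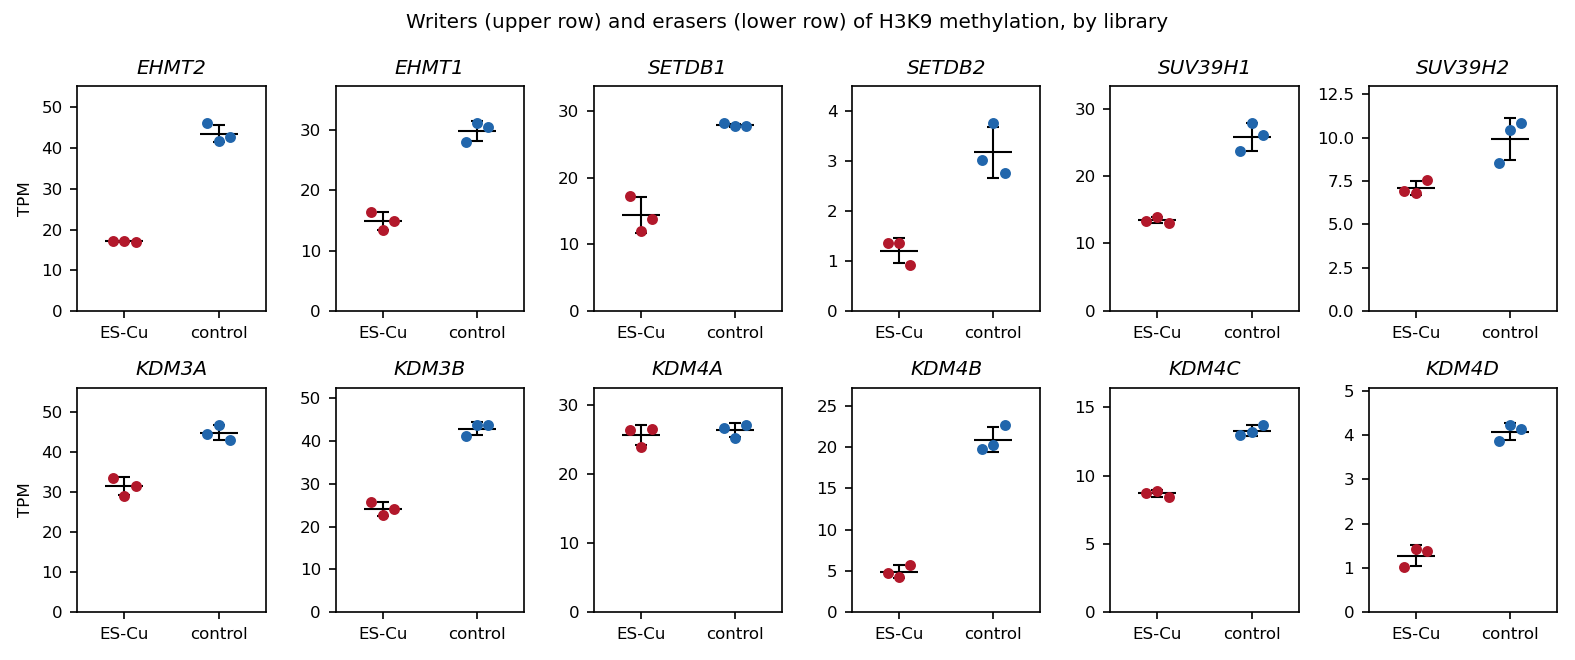
TPM of H3K9 writers and erasers, with 1 point per library and bars at the mean ± SD (n = 3). EHMT2, EHMT1, SETDB1, SUV39H1, KDM4B, KDM4D and KDM3B fell without overlap between ES-Cu and control, whereas KDM4A overlapped. KDM7A is drawn with the H3K27 genes, and PRDM2 is not drawn.

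H3K4 methylation is written by the KMT2 and SETD1 enzymes, which work in COMPASS complexes. Of its 7 writers 2 rose (28.6%) and 1 fell (14.3%), beside 13.5% and 31.2% of all tested genes. SETD1B, which with its paralogue SETD1A sets trimethyl H3K4 at promoters, had 11.05, 9.37 and 11.05 TPM in ES-Cu and 6.31, 7.01 and 6.78 TPM in control. All ES-Cu libraries were higher, with a log2 fold change of 0.57 ± 0.091 (adjusted p = 0.00012 in limma). SETD1A lay at -0.29, so the paralogues differed in sign in the deposited TPM. KMT2D, which monomethylates H3K4 at enhancers, had 16.81, 13.03 and 16.71 TPM in ES-Cu and 12.17, 12.45 and 13.17 TPM in control. Its groups overlapped, the log2 fold change was 0.27 ± 0.097 (adjusted p = 0.0215), and the call was lost without control 1 (adjusted p = 0.061), control 2 (0.0521), ES-Cu 1 (0.0839) or ES-Cu 3 (0.0812). Adjusted p-values of KMT2D over all scalings and left-out libraries ran from 9.68e-06 to 0.0839. KMT2A (MLL1), known for its control of HOX genes, had 9.49, 7.29 and 9.48 TPM in ES-Cu and 15.61, 15.59 and 15.86 TPM in control. It fell by 0.78 on the log2 scale (SE 0.098, adjusted p = 1.72e-05), and the groups stood apart. This call was lost, after median-of-ratios scaling and after quantile normalization, without control 3 or without ES-Cu 2, with adjusted p-values of 2.65e-05 to 0.0594 over all scalings and left-out libraries. KMT2B at -0.29, KMT2C at 0.077 and SETD7 at -0.39 did not meet the rule for a rise or a fall.

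KDM1A (LSD1), the FAD-dependent eraser of monomethyl and dimethyl H3K4 in the CoREST corepressor complex, was the most abundant member in every library. It had 191, 195 and 207 TPM in ES-Cu, against 352, 371 and 349 TPM in control, and fell without overlap by 0.85 on the log2 scale (SE 0.044, adjusted p = 2.04e-08 in limma). Its share of the summed eraser TPM was 34.8 ± 1.44% in ES-Cu and 47.2 ± 0.960% in control. The KDM5 erasers, which act on trimethyl H3K4, were not called. KDM5A had 19.74, 18 and 19.05 TPM in ES-Cu and 19.34, 20.98 and 21.47 TPM in control, which overlap (log2 fold change -0.12, adjusted p = 0.135). KDM5B had 11.98, 12.93 and 12.73 TPM in ES-Cu and 19.02, 19.88 and 19.23 TPM in control, with a log2 fold change of -0.59 that was near the median gene and was -0.065 after median-of-ratios scaling. KDM5C lay at 0.064 and KDM1B at -0.71, neither called in all 3 scalings. The ratio of H3K4 writers to erasers was 0.298, 0.249 and 0.272 in ES-Cu and 0.196, 0.191 and 0.199 in control. It was thus higher in every ES-Cu library, the opposite of the order for H3K9 and H3K27, and went with the lower level of KDM1A. This ratio rests on KDM1A, which averaged 198 of the 302 TPM of summed H3K4 erasers in ES-Cu and 357 of 474 TPM in control.

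Of the 4 writers of H3K36 methylation, NSD2 alone fell in all 3 scalings (25%, beside 31.2% of all tested genes). NSD2 sets dimethyl H3K36 and had 30.69, 28.95 and 28.39 TPM in ES-Cu and 48.52, 47.94 and 50.48 TPM in control, for a log2 fold change of -0.72 ± 0.054 (adjusted p = 2.98e-07 in limma). SETD2, the enzyme that sets trimethyl H3K36, had 12.53, 11.46 and 11.85 TPM in ES-Cu and 13.19, 13.55 and 13.69 TPM in control. These groups did not overlap but the log2 fold change of -0.16 missed the threshold (adjusted p = 0.053), and it was 0.36 after median-of-ratios scaling. NSD1 at -0.64 and NSD3 at 0.092 did not meet the rule for a rise or a fall. Among the erasers, KDM2A and KDM2B, which bind unmethylated CpG islands and remove dimethyl H3K36, moved in opposite directions. KDM2A had 115, 102 and 112 TPM in ES-Cu and 81.1, 82.6 and 83.9 TPM in control. KDM2B, which brings a Polycomb complex to CpG islands, had 9.84, 8.42 and 8.78 TPM in ES-Cu and 20.39, 18.21 and 16.29 TPM in control. KDM2A rose with a log2 fold change of 0.40 ± 0.052 (adjusted p = 2.3e-05), and KDM2B fell by 0.94 (SE 0.094, adjusted p = 2.72e-06), both without overlap. By level, KDM2A was second to KDM1A in each ES-Cu library with EZH2 in rank 3, and in each control library EZH2 ranked 2 and KDM2A ranked 3. KDM8, a Jumonji protein whose histone activity is disputed, averaged 0.683 ± 0.194 TPM in ES-Cu and 1.81 ± 0.441 TPM in control and was not called after quantile normalization (adjusted p = 0.165). The ratio of H3K36 writers to erasers was 0.451 ± 0.0072 in ES-Cu and 0.600 ± 0.0057 in control (SD, n = 3 each), with no overlap. This ratio rests on KDM2A, which averaged 109 of the 159 TPM of summed erasers in ES-Cu and 82.6 of 165 TPM in control. By gene the order was the opposite, with a median log2 fold change of -0.75 for the 6 erasers and -0.40 for the 4 writers. The 6 erasers include KDM4D (-1.16), which was placed there by its family only.

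H4K20 has 3 writers here and no eraser on the list. KMT5A (SET8), which sets monomethyl H4K20 and is needed for passage through the cell cycle, had 34.21, 31.43 and 31.85 TPM in ES-Cu and 32.78, 30.60 and 32.23 TPM in control. The groups overlapped (log2 fold change 0.027, adjusted p = 0.673 in limma). KMT5C, which adds the further methyl groups in heterochromatin, averaged 9.91 ± 0.345 TPM in ES-Cu and 18.2 ± 2.55 TPM in control and fell by 0.80 on the log2 scale. Control 3 was the highest library, and without it the call was lost after median-of-ratios scaling (adjusted p = 0.0614). With the trend of transcript GC content removed from the deposited TPM, KMT5C was at -0.18 and was not called (adjusted p = 0.066). Its transcript has 66.1% GC. KMT5B, the paralogue of KMT5C, lay at -0.21 and did not meet the rule for a rise or a fall.

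The PRDM genes were mostly low. PRDM6, PRDM7, PRDM8, PRDM9 and PRDM12 were not tested, and neither was KDM5D, since their means were below 1 TPM. PRDM7 and PRDM9 are near-identical copies, and KDM5C and KDM5D are close paralogues, so reads of 50 bases could be split among them. Of the 8 tested PRDM genes 2 rose (25%) and none fell in all 3 scalings, beside 13.5% and 31.2% of all tested genes. PRDM1 (BLIMP1), a transcriptional repressor of terminal differentiation in plasma cells and epidermis, had 2.91, 3.35 and 3.73 TPM in ES-Cu and 1.03, 1.07 and 0.66 TPM in control. This was 3.62 times the control mean, the highest ratio among tested members, at a low level in all libraries (log2 fold change 1.18 ± 0.138, adjusted p = 1.06e-05 in limma). PRDM2 (RIZ1), a methyltransferase of H3K9 that is outside the writer class here, had 19.72, 17.36 and 18.64 TPM in ES-Cu and 13.13, 12.79 and 11.93 TPM in control. It rose by 0.52 ± 0.074 (adjusted p = 4.91e-05), opposite in direction to the H3K9 writers EHMT1, EHMT2, SETDB1 and SUV39H1. PRDM4 at 0.23, PRDM10 at -0.31, PRDM11 at -0.69, PRDM15 at -0.47 and PRDM16 at -0.087 did not meet the rule for a rise or a fall.

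Promoters of PRDM1 and SUV39H1 are shown because they hold the core letters GAANNTTC of the heat shock element, the binding motif of the heat shock factors, within the 250 bases before the gene start. The motif is its own reverse complement and was found in 3 of 54 matched members (the third is SETD1A) and in 4.5% of the promoters of all 9821 tested genes with an entry. Sequences are from RefSeq (GRCh38.p14), at chr6:106086086-106086335 for PRDM1 and chrX:48695304-48695553 for SUV39H1, both on the plus strand, with the match in capitals.
PRDM1: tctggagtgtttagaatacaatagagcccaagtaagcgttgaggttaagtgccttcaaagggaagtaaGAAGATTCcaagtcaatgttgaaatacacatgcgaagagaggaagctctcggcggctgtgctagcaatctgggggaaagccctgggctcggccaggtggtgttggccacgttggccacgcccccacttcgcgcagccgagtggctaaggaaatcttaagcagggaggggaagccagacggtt
SUV39H1: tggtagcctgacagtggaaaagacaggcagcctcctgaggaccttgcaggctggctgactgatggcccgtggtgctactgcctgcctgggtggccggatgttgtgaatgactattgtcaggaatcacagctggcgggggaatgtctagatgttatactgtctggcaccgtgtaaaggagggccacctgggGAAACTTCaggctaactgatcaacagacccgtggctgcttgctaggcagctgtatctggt
The match begins 182 bases before the start in PRDM1, which rose, and 60 bases before the start in SUV39H1, which fell. Among members with an entry, 1 of 7 that rose and 1 of 14 that fell held this motif. The metal response letters were in 3 of 7 and 11 of 14, and TGANNNNGC, the core of the antioxidant response element bound by NRF2, was in 3 of 7 and 4 of 14, beside 42.8% of all promoters.

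Of the 6 other SET-domain genes 2 fell (33.3%, beside 31.2% of all tested genes). SETD3, a methyltransferase of a histidine of actin, had 24.51, 26.85 and 26.06 TPM in ES-Cu and 52.04, 46.12 and 51.73 TPM in control, without overlap (log2 fold change -0.93, adjusted p = 1.58e-07 in limma). KMT2E (MLL5), a PHD-finger and SET-domain protein with no settled enzyme activity, had 15.63, 13.23 and 15.02 TPM in ES-Cu and 22.94, 26.15 and 25.35 TPM in control. It fell by 0.73 on the log2 scale (adjusted p = 6.13e-06), but after median-of-ratios scaling the call was lost without control 2 (adjusted p = 0.0926), control 3 (0.0791) or ES-Cu 2 (0.108), within a range of 1.22e-05 to 0.108 over all scalings and left-out libraries. SETD4 at -0.55, SETD5 at -0.42, SETD6 at -0.66 and SETD9 at -0.31 did not meet the rule for a rise or a fall.

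Set against each other over all marks, writers summed to 386 ± 19.1 TPM in ES-Cu and 538 ± 11.3 TPM in control, and erasers to 567 ± 20.1 TPM in ES-Cu and 757 ± 9.99 TPM in control. Both sums were lower in ES-Cu in the deposited TPM, but after median-of-ratios scaling they were 1.06 and 1.10 times the control means, so no direction is given for either. Writers over erasers gave 0.702, 0.673 and 0.668 in ES-Cu and 0.700, 0.705 and 0.727 in control, and these overlap. The eraser sum rests on KDM1A. Without it, in a comparison chosen after seeing the data, the ratio was 1.05, 1.05 and 1.04 in ES-Cu and 1.32, 1.36 and 1.35 in control, with no overlap. The ratios are descriptions with no test, and an exact permutation test of 3 against 3 libraries cannot give a p below 0.1.

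**Figure D5:**
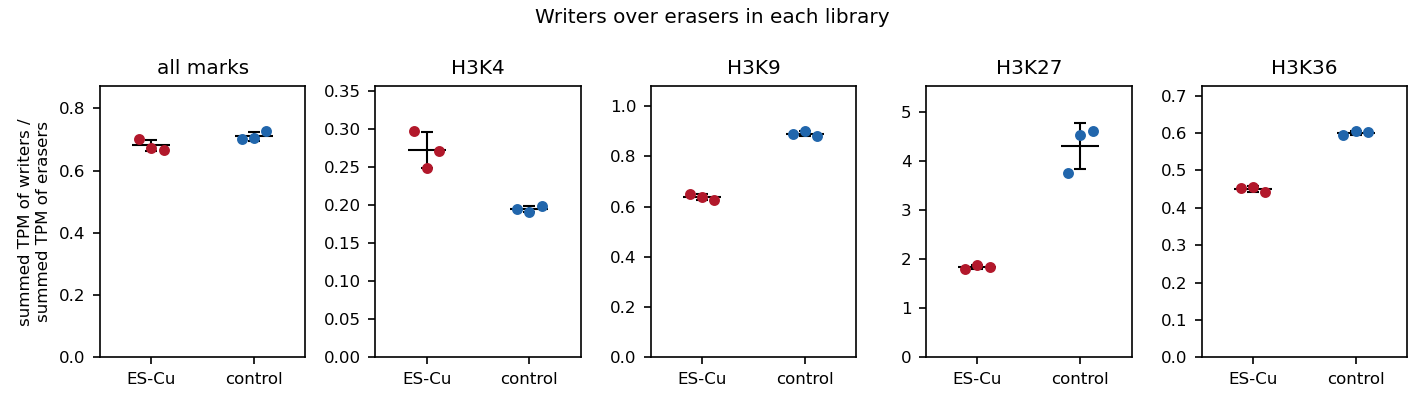
Summed TPM of writers over summed TPM of erasers within each library, over all marks and for H3K4, H3K9, H3K27 and H3K36, with bars at the mean ± SD (n = 3). ES-Cu and control overlap over all marks, ES-Cu is higher for H3K4 (0.273 against 0.195) and lower for H3K9 (0.639 against 0.891), H3K27 (1.84 against 4.30) and H3K36 (0.451 against 0.600). Most of the eraser sum is KDM1A for H3K4, and KDM2A has the largest part of it for H3K36. PRDM2 is not counted among the H3K9 writers.

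Genes that work with these enzymes were taken from 7 lists of partners, related enzymes and cofactor supply. Their counts are small and are to be read beside all tested genes, of which 31.2% fell and 13.5% rose. Of 12 COMPASS partners of the H3K4 writers, 5 fell (41.7%) and 1 rose (8.33%). MEN1 (menin), which holds KMT2A and KMT2B on chromatin, had 36.6, 36.4 and 41.4 TPM in ES-Cu and 99.5, 92.4 and 94.5 TPM in control, a log2 fold change of -1.30 (adjusted p = 8.89e-09 in limma). ASH2L, a core subunit shared by all COMPASS complexes, fell by 1.16, DPY30 by 0.96, PSIP1 by 1.15 and NCOA6 by 0.76 on the log2 scale. The core subunit RBBP5 rose by 0.30, so subunits of 1 complex did not move together. Of 11 PRC2 partners listed, 1 rose and 1 fell (9.09% each). The Polycomb-like proteins PHF1 (0.23), which rose, and PHF19 (-1.13), which fell, both bring PRC2 to chromatin, and the core subunits EED (-0.40) and SUZ12 (0.037) did not meet the rule for a rise or a fall.

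Of 10 partners and readers of H3K9 methylation 2 fell (20%) and none rose, beside 31.2% and 13.5% of all tested genes. CBX5 (HP1 alpha), which binds methylated H3K9, had 7.71, 6.24 and 6.79 TPM in ES-Cu and 23.08, 25.71 and 23.05 TPM in control, far apart, with a log2 fold change of -1.66 (adjusted p = 2.43e-08 in limma). Its relatives CBX1 (-0.64) and CBX3 (-0.61) were not called in all 3 scalings. UHRF1, which links H3K9 methylation to maintenance of DNA methylation, fell by 0.78. Of 10 partners of KDM1A in the CoREST complex, 5 fell and none rose, with a median of -0.73. PHF21A, which reads unmethylated H3K4 in that complex, had 6.19, 5.35 and 6.31 TPM in ES-Cu and 20.5, 19.2 and 20.4 TPM in control. It fell by 1.60 (adjusted p = 2.12e-08), beside RCOR2 at -2.18, GSE1 at -1.07 and RCOR3 at -0.81. KDM1A thus fell together with 5 of 10 listed partners, beside 31.2% of all tested genes. The other 5 did not meet the rule for a rise or a fall, among them RCOR1 (-0.0030), HDAC1 (-0.45) and HDAC2 (0.094). The listed partners therefore did not move together.

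Related enzymes outside the symbol rule were also counted. Of 8 tested methyltransferases 2 fell (25%, beside 31.2% of all tested genes), SMYD5 (-0.90) and SMYD4 (-0.89), and none rose. Of 7 demethylases and related Jumonji proteins 2 rose (28.6%, beside 13.5% of all tested genes) and none fell. JMJD1C, of the KDM3 family, had 37.07, 33.95 and 35.30 TPM in ES-Cu and 16.47, 17.14 and 15.76 TPM in control, all ES-Cu libraries being higher (log2 fold change 1.06, adjusted p = 5.11e-08 in limma). Within that family KDM3B fell, KDM3A was not called and JMJD1C rose. JMJD6, an oxygenase that acts on proteins including splicing factors, rose by 0.26.

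Of 10 genes that supply methyl donor or 2-oxoglutarate, 5 fell (50%) and 1 rose (10%), beside 31.2% and 13.5% of all tested genes. MAT2A, the enzyme that makes S-adenosylmethionine, had 174, 161 and 166 TPM in ES-Cu and 119, 128 and 128 TPM in control and rose by 0.42 (adjusted p = 7.58e-06 in limma). Its regulatory subunit MAT2B fell by 0.79, so the subunits moved apart. MTR, which remethylates homocysteine to methionine, fell by 1.28. IDH2, the mitochondrial enzyme that makes 2-oxoglutarate from isocitrate, had 47.1, 46.1 and 47.8 TPM in ES-Cu and 137, 129 and 129 TPM in control, a log2 fold change of -1.46 (adjusted p = 6.07e-10). OGDH, the lipoylated-complex subunit that consumes 2-oxoglutarate, fell by 1.04.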

How the data were processed

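Total RNA of the 6 libraries was sequenced on a BGISEQ500 instrument (single-end, 50 bases), per the labels' protocols. The deposited values are TPM made by the authors. The submitters' processing notes list HISAT, Bowtie2 and GRCm38.p6 and give no tool versions. GRCm38.p6 is a mouse build although the genes are human, so no coordinates rest on it. How TPM was computed, and with which annotation, is not given in the sources used here. Depth is unknown and no counting interval was computed.

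The computations used limma 3.58.1 in R 4.3.3 on log2(TPM + 1), with a mean-variance trend, a minimum mean of 1 TPM, two-sided tests and Benjamini-Hochberg adjustment over 11927 genes. Fits were repeated after median-of-ratios scaling and quantile normalization. Standard deviations are over 3 libraries. Classes and marks were assigned by known enzyme activity of the gene or its family. KDM4D was counted for H3K36 as well as H3K9 by its family only, together with KDM4A, KDM4B and KDM4C. The count, sum and median of the H3K36 erasers therefore include it. Values by library are given, per class, for up to 4 members that rose and 4 that fell with the largest change, provided that a group mean reached 5 TPM and the groups did not overlap, for a set of well-known members whatever their values, and for up to 2 genes per partner list. KDM8, KDM4D, SETDB2, KMT5C, EED, SUZ12, CBX1, CBX3, MAT2A and the other list genes fall outside it and were chosen with their values in view. The members, the lists, and the requirement of 3 scalings were chosen with earlier results of these data known. Promoters were matched by gene identifier to RefSeq (54 of 59 members). Some genes that the rule or the lists hold enter the counts but are not reported here by name. The code was checked on simulated data. The labels do not say what a replicate number marks, and no block was used in the main fit.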

Additional observations from a re-analysis of the deposited data

How the results depend on the processing

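Of the 22 members that rose or fell, all 22 were called with pseudocounts of 0.1 and 0.5, no filter, removal of the 20 highest genes, no trend, array weights and the replicate block. With a filter of 5 TPM the 20 that were tested were called (not KDM4D and PRDM1), 19 to 21 were called without 1 library, and 5 with limma treat (minimum log2 fold change 0.5). No call turned in sign under these settings. With the GC trend removed from the deposited TPM, KMT5C was not called (adjusted p = 0.066 in limma). With the replicate block 8 writers fell, SETDB2 being added. The labels do not say what a replicate number marks. Between libraries of the same number, r of deviations was -0.034 to 0.021, and not every library correlated best with its own number. These values cannot decide whether such libraries were handled together.

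Counts in a single scaling differ widely from those in all 3. Writers that rose were 10 after median-of-ratios scaling, 9 after quantile normalization, 7 with the GC trend removed, 5 without the 20 highest genes, 4 with all SET and PRDM genes as writers, 0 with treat and 1 to 2 without 1 library. Writers that fell were 16 in the deposited TPM alone and 1 with treat. Erasers that rose were 7, 7 and 7 after median-of-ratios scaling, quantile normalization and GC removal and 2 with treat, and those that fell were 10 in the deposited TPM, 9 with GC removal and 1 with treat. PRDM and other SET genes that rose were 5 after quantile normalization, 4 with GC removal and 1 with treat, and those that fell were 9 in the deposited TPM, 0 with treat and 1 to 2 without 1 library. Over all genes 4532, 3751, 3649 and 568 rose after median-of-ratios scaling, quantile normalization, GC removal and treat, against 1614 in all 3 scalings, and 8351 fell in the deposited TPM and 815 with treat, against 3718.

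The median log2 fold change of writers was 0.10 after median-of-ratios scaling, 0.028 after quantile normalization, -0.27 without the 20 highest genes and -0.091 with GC removal. That of erasers was -0.049, -0.11, -0.42 and -0.20 in the same settings. The ratio of writers to erasers, ES-Cu over control, was 0.958, and 0.777 without KDM1A, a choice made after seeing the data. EZH2 turned to 0.18 after median-of-ratios scaling. KDM5A turned to 0.42, 0.32, 0.037 and 0.20 after median-of-ratios scaling, quantile normalization, removal of the 20 highest genes and GC removal, and SETD2 to 0.36, 0.34 and 0.16 after the first 2 and the last of these. KMT5A ran from -0.0096 to 0.050 without 1 library. The cause of these changes was not tested beyond the settings themselves. TPM keeps no depth, so counting error of low genes such as PRDM1 and KDM4D is unknown.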

Other observations

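Across the 53 tested members, longer transcripts went with less negative fold changes, with a Spearman correlation of 0.385 between the log2 fold change and transcript length. By class it was 0.448 across the 22 writers and 0.498 across the 17 erasers, but 0.081 across the 14 PRDM and other SET genes. Over 11856 tested genes with a value it was 0.041. The members are long, with a median transcript of 5924 bases against 3362.5 bases over all genes. GC content gave -0.116 across members and -0.213 over all genes. Lengths are of the longest basic protein-coding transcript in GENCODE 29, and members share their libraries, so these correlations are descriptions only.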
